A study of Mus musculus with 8 samples.

Results

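Bile acids are made in hepatocytes, secreted across the canalicular membrane into bile, and taken back from portal blood across the basolateral membrane, so that a small pool circulates between liver and gut. Transporters of the ABC family drive secretion at the canaliculus, carriers of the SLC10 and SLCO families take up bile acids and other organic anions from blood, and a further group of ABC transporters returns them to blood when the hepatocyte is overloaded. The genes described here are 10 such transporters, chosen by name and role: Abcb11, Abcb4 and Abcc2 at the canaliculus, Slc10a1, Slco1a1, Slco1a4, Slco1b2 and Slco2b1 for basolateral uptake, and Abcc3 and Abcc4 for basolateral efflux. All 10 were on the array, and all passed the filter on dim probes among 43152 features tested, of which 23911 were genes with a symbol.

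Livers came from male mice labelled NZO/HiBomDifexC57BL/6J, recombinant congenic mice on the background of the New Zealand Obese strain, a model of obesity and fatty liver. Arrays 1, 4, 6 and 7 hold livers of genotype Ltg/NZO.5.3N/N, called NN, and arrays 2, 3, 5 and 8 those of Ltg/NZO.5.3N/B, called NB. The genotypes are described as differing in a chromosome 18 segment of 5.3 Mbp. None of the 10 transporter genes lies on chromosome 18. Mice of both genotypes ate a high-fat diet with 45% fat, and the labels place the livers at week 5. No group on another diet and no pure C57BL/6J liver was analysed here. Per the series title, the comparison asked which hepatic transcripts differ between the genotypes.

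Each array measured 1 Cy3-labelled total liver RNA. The labels do not say that each array was a separate animal, so the spread between arrays of a genotype may be partly technical. Signal is given throughout as the log2 of the scanner software's processed signal minus the 75th percentile of that array, so a value of 4 lies that many doublings above the percentile. The percentile itself lay between 445 and 584.4 intensity units, and 74.4% to 79.6% of probes stood well above background. Signals of different probes depend on their sequence, so no transporter's level was set against another's. All 10 hepatocyte markers examined, among them the albumin gene Alb and the urea cycle gene Cps1, were well above background on all 8 arrays. In whole liver RNA, fewer cells of a type and less transcript per cell cannot be told apart.

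The probes decide which transcripts the values report, so a stretch of 30 bases of each is shown, 5′ to 3′ and as given in the scanner files. Capitals mark AATAAA, the hexamer of polyadenylation signals, where a probe holds it. The first 3 lines are canalicular genes.

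Abcb11 (NM_021022): acttttcattccctgccaccatgtcacctg
Abcb4 (NM_008830): gccagggaaggccgcacctgcattgtgatc
Abcc2 (NM_013806): tttcttagttacttttgttcttgtgactgt
Slc10a1 (NM_001177561, brighter probe): tgtctagcacttccagcaaaccttcaacag
Slc10a1 (NM_011387): ccctgaagtcattggaccactgttcttctt
Slco1a1 (NM_013797): ggattttagaaatggggaagattgttggcc
Slco1a4 (NM_030687): tatgggcctggggtgtttcttaatatcgat
Slco1b2 (NM_020495): tttgcatggtgctattctctcctgaagtct
Slco2b1 (NM_001252530): ctgttagcgggtttccattctgtctatttt
Abcc3 (NM_029600): gagtccactgatgaAATAAAgctgtagtca
Abcc4 (NM_001033336, brighter probe): acgacccgtcacAATAAAccattctcaagt
Abcc4 (NM_001163676): tgagaaggagcgatatgagaaagtgatcaa

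The 12 probes were 46 to 53 bases long, and each was assigned to its gene through the RefSeq accession in the scanner file. Slc10a1 and Abcc4 each had 2 probes, designed to different RefSeq transcripts of the gene. The hexamer stood in 2 of the 12 transporter probes, one for Abcc3 and one for Abcc4, and in 6.4% of the 60273 probes of the array. A match is a run of letters and does not show a site that is used. The Slco genes are close relatives. Their probes shared no run longer than 6 bases with each other. None of the 12 probes shared a run of 16 bases with a probe of another gene on the array. Runs between probes do not show whether a probe matches the transcript of a related gene, which was not examined.

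No transporter was called between the genotypes. With limma over all 43152 features and Benjamini-Hochberg adjustment, 0 of the 10 had an adjusted p under 0.05, where 0.00695% of all features did, and 0 of the 10 had an unadjusted p under 0.05, where 1.69% of features did. Each of the 10 had an adjusted p of 1. The values of NN and NB overlapped for every one of the 10; over the whole array the 4 NB values lay entirely above the 4 NN values in 0.419% of features and entirely below in 0.667%. The log2 fold change (NB minus NN) lay between −0.15 and 0.14 for the 10 genes, with a median of −0.0807, and 7 of the 10 were negative. Of all features 54.1% were negative, with a median of −0.00976. The NB to NN ratio of the 10 genes lay between 0.899 and 1.1, and the 95% confidence interval given with each gene bounds how large a difference these arrays could have missed.

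**Figure D1:**
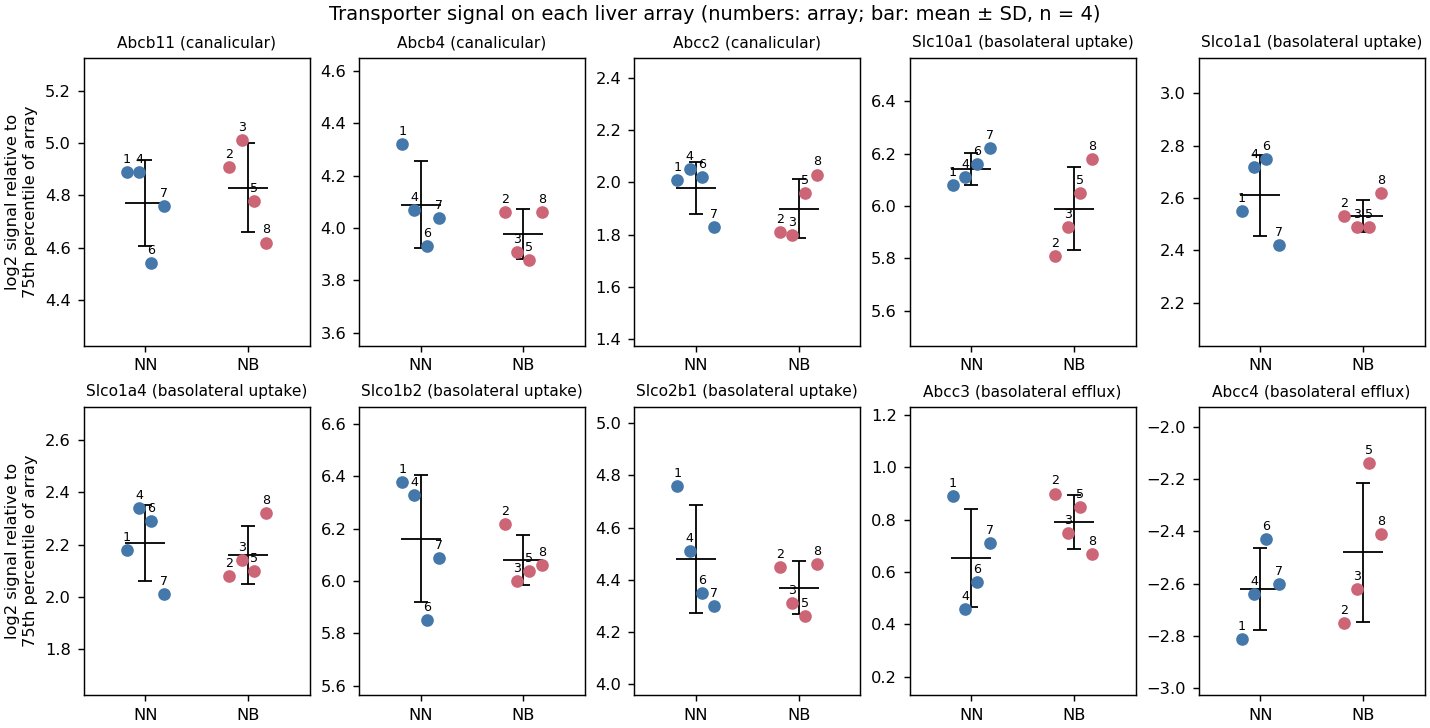
Log2 signal relative to the 75th percentile of the array for each of the 10 transporters, with 1 panel per gene, a point per array labelled with its number, and a bar for the mean ± SD of each genotype (n = 4). All panels span the same height, and in each of them the NB points fall among or across the NN points.

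The canalicular genes carry bile formation. Abcb11 encodes the bile salt export pump, whose loss causes intrahepatic cholestasis. Its signal was 4.89, 4.89, 4.54 and 4.76 on NN 1, NN 4, NN 6 and NN 7, and 4.91, 5.01, 4.78 and 4.62 on NB 2, NB 3, NB 5 and NB 8. The lowest value was in NN and the highest in NB, with NB 5 and NB 8 inside the NN range and NB 2 and NB 3 above it. The mean was 4.77 ± 0.168 (SD, n = 4) in NN and 4.83 ± 0.171 (SD, n = 4) in NB, a log2 fold change of 0.06 (SE 0.117, limma adjusted p = 1). The 95% confidence interval of the NB to NN ratio ran from 0.868 to 1.25.

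Abcb4 encodes the flippase that supplies phosphatidylcholine to bile and so protects the biliary tree from bile acids. Its signal was 4.32, 4.07, 3.93 and 4.04 on NN 1, NN 4, NN 6 and NN 7, and 4.06, 3.91, 3.88 and 4.06 on the NB arrays 2, 3, 5 and 8. NN 1 was the highest of the 8, and the ranges of the genotypes overlapped for the rest. The NB minus NN difference came to a log2 fold change of −0.11 (SE 0.1, limma adjusted p = 1), and the interval of the NB to NN ratio ran from 0.79 to 1.08.

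Abcc2 encodes the canalicular pump for conjugated organic anions such as bilirubin glucuronides and glutathione conjugates. It was the steadiest of the 10, with a highest-to-lowest ratio of 1.19 over the 8 arrays. Its signal was 2.01, 2.05, 2.02 and 1.83 on NN 1, NN 4, NN 6 and NN 7, and 1.81, 1.80, 1.96 and 2.03 on NB 2, NB 3, NB 5 and NB 8. NN 7 stood below the other 3 NN arrays, at the level of NB 2 and NB 3. The log2 fold change was −0.08 (SE 0.0879, limma adjusted p = 1; ratio interval 0.825 to 1.09).

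The uptake carriers were all slightly negative, and none passed the test. Slc10a1 encodes NTCP, the sodium-dependent carrier that takes up conjugated bile acids. Its brighter probe read 6.08, 6.11, 6.16 and 6.22 on NN 1, NN 4, NN 6 and NN 7, and 5.81, 5.92, 6.05 and 6.18 on NB 2, NB 3, NB 5 and NB 8. The NN arrays lay close together (mean 6.14 ± 0.0612, SD, n = 4), while the NB arrays spread over a wider range (mean 5.99 ± 0.159, SD, n = 4), with NB 2, NB 3 and NB 5 below all NN arrays and NB 8 among them. The log2 fold change of −0.15 (SE 0.0941) was the lowest of the 10, with an unadjusted p of 0.136 and a limma adjusted p of 1. In fold terms NN exceeded NB by a factor of 1.11, with an interval from 0.96 to 1.29. The size depended on the arrays and the scaling: it was −0.22 without NB 8 (unadjusted p of 0.0351), −0.10 without NB 2 (unadjusted p of 0.311) and −0.06 with normexp background correction (unadjusted p of 0.576), with a limma adjusted p of 1 in each. Every slide column paired 1 NN with 1 NB array, and NB was the lower in 4 of 4, by log2 differences of −0.27, −0.19, −0.12 and −0.04; 5.24% of all features were lower in NB in every column. With the slide column as a block the limma p was 0.0917 and the adjusted p 1.

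The second Slc10a1 probe gave nearly the same difference. It read 4.38, 4.54, 4.50 and 4.51 on NN 1, NN 4, NN 6 and NN 7, and 4.19, 4.25, 4.38 and 4.48 on NB 2, NB 3, NB 5 and NB 8, a log2 fold change of −0.16 (SE 0.0872). When every kept probe was tested apart, over 46814 probes, its limma adjusted p was also 1. NB 2 and NB 3 were lowest with both probes. Across the 8 arrays the probes rose and fell together (Pearson's r = 0.94, exact permutation p = 0.00122, adjusted p = 0.00243 over the 2 pairs of probes; Spearman's rho = 0.83, exact permutation p = 0.0154). Without the 2 arrays farthest from the median, r was 0.73.

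**Figure D2:**
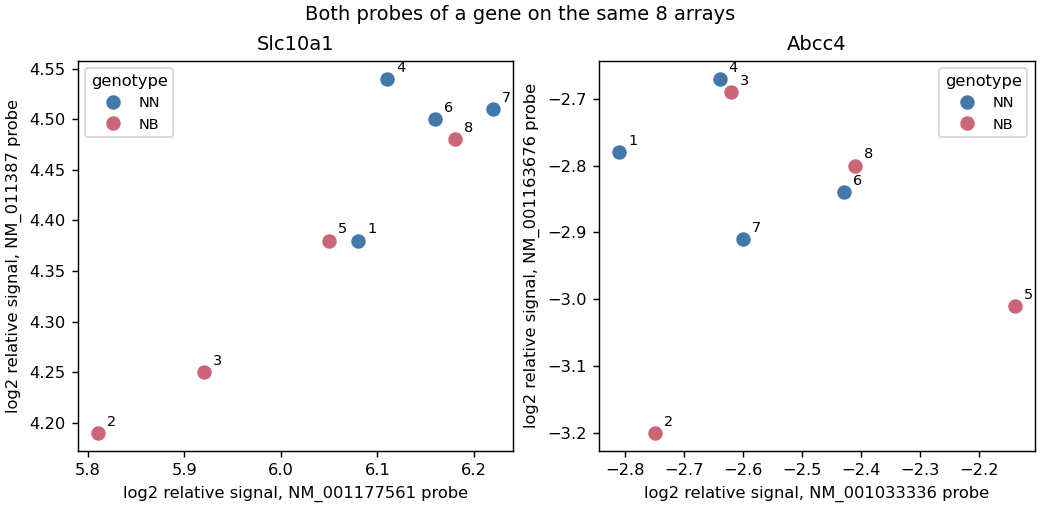
Log2 relative signal of both probes of Slc10a1 (left) and of Abcc4 (right), with a point per array, coloured by genotype and labelled with the array number. The Slc10a1 probes order the arrays alike (r = 0.94), while those of Abcc4 do not (r = −0.11).

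Slco1a1, Slco1a4 and Slco1b2 encode sodium-independent organic anion transporters, and in the RefSeq table they lie near one another on chromosome 6, with 1 other tested transcript, Gm30843, between them in the table's gene order. Gm30843 was well above background on 4 of the 8 arrays, the fewest that the filter allowed, and not on the others. Its log2 fold change was −1.45 (SE 0.397, limma adjusted p = 1). Slco1a1, which mouse liver expresses far more in males than in females, read 2.55, 2.72, 2.75 and 2.42 on NN 1, NN 4, NN 6 and NN 7, and 2.53, 2.49, 2.49 and 2.62 on NB 2, NB 3, NB 5 and NB 8. All 4 NB values lay inside the NN range. This gave a log2 fold change of −0.08 (SE 0.0926, limma adjusted p = 1; ratio interval 0.816 to 1.09).

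Slco1a4, a carrier also found at the blood-brain barrier, read 2.18, 2.34, 2.29 and 2.01 in NN and 2.08, 2.14, 2.10 and 2.32 in NB, in the same order of arrays. Here too the NB values lay inside the NN range, and NN 7 was lowest, as for Slco1a1. The log2 fold change was −0.04 (SE 0.0982, limma adjusted p = 1; ratio interval 0.831 to 1.13).

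Slco1b2, the liver-restricted carrier that takes up unconjugated bile acids and many drugs, read 6.38, 6.33, 5.85 and 6.09 in NN and 6.22, 6.00, 6.04 and 6.06 in NB. NN 1 and NN 4 were the highest and NN 6 the lowest of the 8, so NN spanned the whole NB range. For NB minus NN the fit gave a log2 fold change of −0.08 (SE 0.125, limma adjusted p = 1; ratio interval 0.776 to 1.15).

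Slco2b1 encodes a more widely expressed organic anion carrier that transports steroid sulfates. It read 4.76, 4.51, 4.35 and 4.30 in NN and 4.45, 4.31, 4.26 and 4.46 in NB, with NN 1 above the other 7 arrays. The log2 fold change was −0.11 (SE 0.114, limma adjusted p = 1; ratio interval 0.775 to 1.11).

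The basolateral efflux pumps had the highest fold changes of the 10. Abcc3 exports glucuronides and bile acids to blood and is raised in cholestasis. It read 0.89, 0.46, 0.56 and 0.71 on NN 1, NN 4, NN 6 and NN 7, and 0.90, 0.75, 0.85 and 0.67 on NB 2, NB 3, NB 5 and NB 8. NN 1 lay with the upper NB arrays, and NN 4 and NN 6 were below all NB arrays. On the log2 scale NB minus NN was 0.14 (SE 0.108, unadjusted p = 0.223, limma adjusted p = 1), and the ratio interval ran from 0.931 to 1.31.

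Abcc4, which exports bile acids together with glutathione and also cyclic nucleotides, had the widest spread of the 10, with a highest-to-lowest ratio of 1.59. Its signal was below the array percentile but well above background on all 8 arrays. The brighter probe read −2.81, −2.64, −2.43 and −2.60 in NN and −2.75, −2.62, −2.14 and −2.41 in NB. NB 5 was highest and NN 1 lowest, with the other 6 values interleaved. The log2 fold change was 0.14 (SE 0.142, limma adjusted p = 1; ratio interval 0.881 to 1.38), and 0.03 without NB 5. With this brighter probe NB was the higher in 4 of 4 slide columns, by log2 differences of 0.06, 0.02, 0.29 and 0.19. Of all features 3.84% were higher in NB in every column. With the column as a block the limma p was 0.132 and the adjusted p 1.

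The second Abcc4 probe pointed the other way. It read −2.78, −2.67, −2.84 and −2.91 in NN and −3.20, −2.69, −3.01 and −2.80 in NB, a log2 fold change of −0.12 (SE 0.12, limma adjusted p = 1 over all probes). NB 5, highest with one probe, was the second lowest with the other. Over the 8 arrays the correlation between the probes did not pass the test (Pearson's r = −0.11, exact permutation p = 0.78, adjusted p = 0.78 over the 2 pairs of probes; Spearman's rho = −0.29, exact permutation p = 0.501; r = −0.29 without the 2 arrays farthest from the median). With this second probe NB was the lower in the slide columns of NB 2, NB 3 and NB 5, and the higher only in that of NB 8. The sign of the Abcc4 difference therefore depended on the probe.

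**Figure D3:**
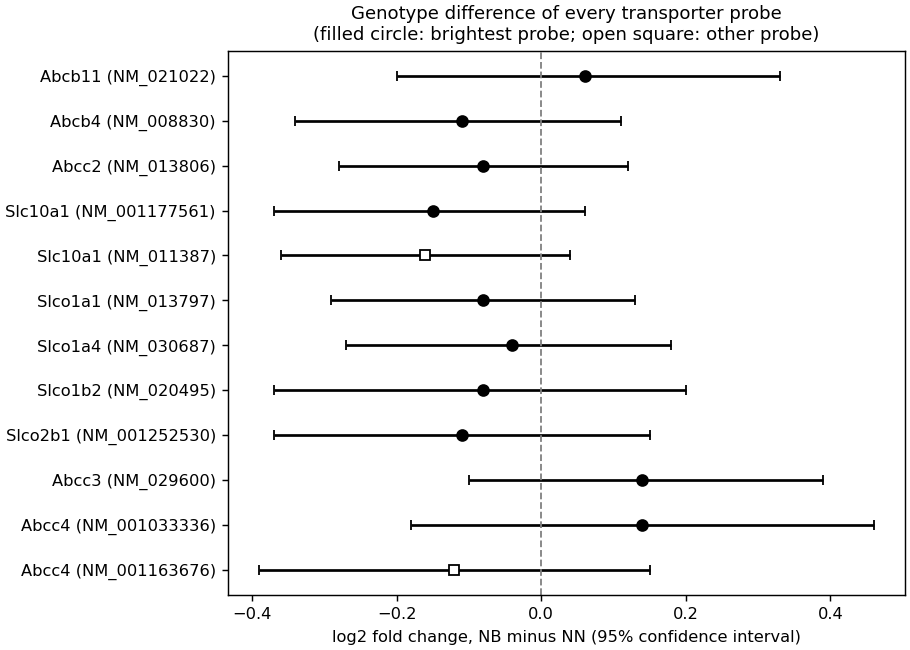
Log2 fold change (NB minus NN) of each of the 12 transporter probes with its 95% confidence interval from limma. Filled circles are the brightest probe of a gene and open squares the other probe; every interval spans 0, and the Abcc4 probes lie on opposite sides of it.

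How the transporters varied together was examined next, over the 8 arrays of both genotypes and all 45 pairs of genes. Of the pairs 30 were positive and 15 negative, with a median r of 0.12. The median was 0.23 over the 14 pairs of the same role and 0.12 over the other 31. After Benjamini-Hochberg adjustment over the 45 pairs 0 passed in exact permutation tests, by Pearson's r or by Spearman's rho, although 7 and 6 pairs had an unadjusted p under 0.05.

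The pair Slco1a1 and Slco1a4 had r = 0.90 (exact permutation p = 0.0027, adjusted p = 0.0759; rho = 0.83, exact permutation p = 0.0154, adjusted p = 0.173), and r was 0.92 without NN 6 and NN 4, the arrays farthest from the median of Slco1a1. Both were low on NN 7 and high on NN 4 and NN 6. Whether the probe of either gene also detects the transcript of the other was not tested. Abcb4 and Slco2b1, of different roles, had r = 0.94 (exact permutation p = 0.00337, adjusted p = 0.0759; rho = 0.93, exact permutation p = 0.00223, adjusted p = 0.1), which was 0.70 without NN 1 and NB 5. NN 1 was the highest array for both. With genotype means removed, r was 0.91 and 0.93 for these pairs. Both pairs passed with quantile normalization (adjusted p = 0.048 each) and without NN 6 (adjusted p = 0.0402 each), and Abcb4 with Slco2b1 also without NN 7 (adjusted p = 0.00893), all by exact permutation. With normexp background correction r was 0.74 for Slco1a1 with Slco1a4 and 0.90 for Abcb4 with Slco2b1. Neither pair passed there (exact permutation, adjusted p = 0.195 and 0.14). Without NN 1 neither passed, with r = 0.90 and 0.80 in the same order (exact permutation, adjusted p = 0.417 each).

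The pairs next in order of p did not pass either. Abcb4 with Slco1b2 had r = 0.81 (exact permutation p = 0.011, adjusted p = 0.165; rho = 0.83, exact permutation p = 0.0154, adjusted p = 0.173), with r = 0.79 without NN 1 and NB 5. Slco1b2 with Slco2b1 had r = 0.77 (exact permutation p = 0.0211, adjusted p = 0.211; rho = 0.67, exact permutation p = 0.0831, adjusted p = 0.309), with r = 0.35 without NN 1 and NN 4. Abcc2 and Slco1a4 followed (r = 0.81, exact permutation p = 0.0235, adjusted p = 0.211; rho = 0.83, exact permutation p = 0.0154, adjusted p = 0.173), with r = 0.91 without NB 3 and NB 2. Abcc2 with Slco1a1 came next (r = 0.76, exact permutation p = 0.0324, adjusted p = 0.243). Of the negative pairs, Slco1a1 with Abcc3 had the smallest p (r = −0.73, exact permutation p = 0.0424, adjusted p = 0.253). Their r was −0.00 without NN 6 and NN 4. Slco1a4 with Abcc3 followed (r = −0.71, exact permutation p = 0.0542, adjusted p = 0.253). Abcb11 with Slc10a1 came after them (r = −0.69, exact permutation p = 0.0555, adjusted p = 0.253). For this last pair rho was −0.79 (exact permutation p = 0.0279, adjusted p = 0.209), and r was −0.68 without NN 6 and NB 8. The arrays low for the export pump, NN 6 and NB 8, were thus among the high ones for the main uptake carrier, though this pair did not pass the adjustment.

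**Figure D4:**
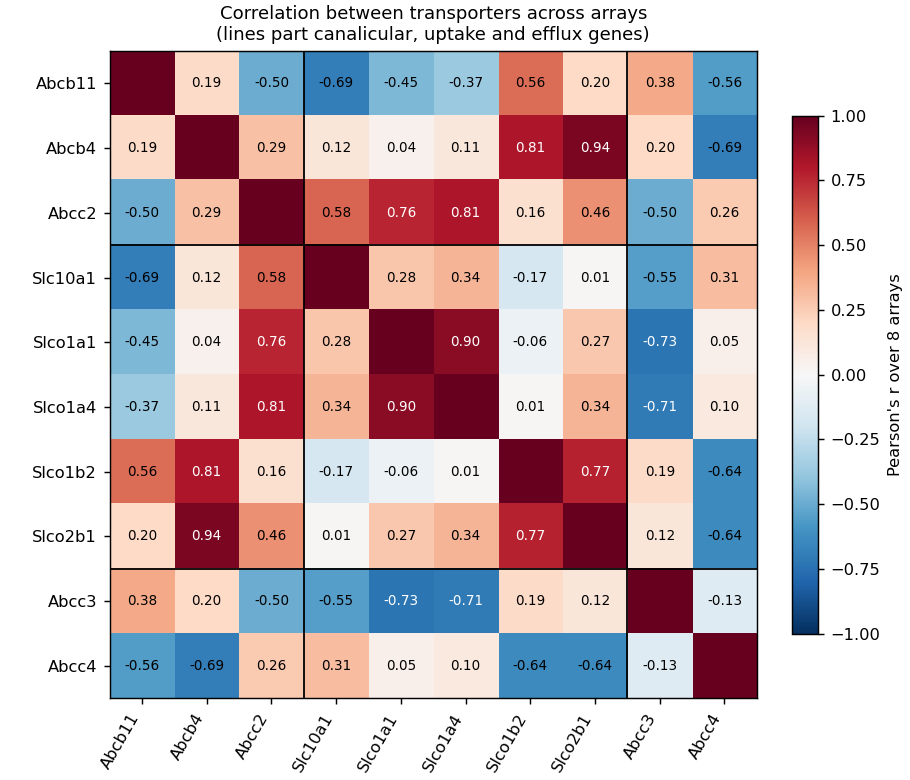
Pearson's r over 8 arrays for each pair of the 10 transporters, with lines between canalicular, uptake and efflux genes. The highest values join Abcb4 with Slco2b1 (0.94) and Slco1a1 with Slco1a4 (0.90), and none passed adjustment over 45 pairs.

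The other carriers and pumps of the pathway showed no called difference either. Of 12 measured further uptake carriers 0 were called, with 5 positive and 7 negative and a median log2 fold change of −0.0187. Slc10a2, the apical sodium-dependent bile acid carrier of ileum and bile duct, was at 0.45 (SE 0.223, limma adjusted p = 1), and Slco1a5 at −0.09 (SE 0.0978, limma adjusted p = 1). Of 12 further efflux transporters 0 were called, with 7 positive and 5 negative and a median of 0.0222; the drug efflux pump gene Abcb1a was at −0.12 (SE 0.0868).

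Slc51a encodes the alpha subunit of the basolateral bile acid exporter OST. Of these 2 lists it was the one gene whose genotypes did not overlap, with NB the lower, as in 0.667% of all features. It read −3.61, −3.59, −3.60 and −3.70 on NN 1, NN 4, NN 6 and NN 7, and −3.92, −3.91, −4.25 and −3.76 on NB 2, NB 3, NB 5 and NB 8. The NN arrays were tightly grouped, and the nearest NB array, NB 8, lay just under NN 7. The genotype difference was a log2 fold change of −0.33 (SE 0.108, unadjusted p = 0.0136), and the limma adjusted p was 1, so it was not called. Over 20 alternatives the log2 fold change lay between −0.40 and −0.17. Slc51b, the beta subunit, was at 0.02 (SE 0.25).

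Upstream of the transporters, the nuclear receptors that control them were not called either. Of 16 receptors and transcription factors 0 passed, 6 were positive and 10 negative, and the median was −0.0419. Nr1h4, which encodes FXR, the bile acid receptor that induces Abcb11, was at −0.02 (SE 0.0755), and Nr1i2, which encodes the xenobiotic receptor PXR, at −0.11 (SE 0.0753). Nr1i3, which encodes CAR, was at 0.37 (SE 0.298) and varied widely, from 0.05 to 0.76 in NN and from 0.24 to 1.43 in NB. The target list of PXR and CAR had 4 of 8 measured genes positive, a median of −0.0131 and 0 called, with Cyp3a11, the main drug-metabolizing enzyme under PXR, at −0.23 (SE 0.107, limma adjusted p = 1). The glutathione transferase gene Gsta2 was at −0.81 (SE 0.709), and only 3 NN and 2 NB arrays measured it well above background.

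Of the 12 genes of bile acid synthesis and conjugation, 10 were negative and 2 positive, with a median of −0.0684 and 0 called. Cyp8b1, the sterol 12-alpha-hydroxylase that sets the share of cholic acid, had the smallest unadjusted p of the list, at −0.26 (SE 0.109, unadjusted p = 0.0405, limma adjusted p = 1). Cyp7a1, the rate-limiting enzyme of the classic route, was at −0.12 (SE 0.183), and the bile acid reductase gene Akr1d1 at −0.20 (SE 0.155). The 11 genes of canalicular scaffolding and vesicle traffic stayed between −0.04 and 0.14, with a median of 0.0154 and 0 called; Msn, of the ezrin, radixin and moesin family, was at 0.14 (SE 0.139) and Slc9a3r1, a scaffold of apical membranes, at 0.06 (SE 0.0817). The NRF2 target list, which shares inducers with the Abcc genes, had 4 of 8 measured genes positive, a median of −0.0191 and 0 called, with Nqo1 at −0.35 (SE 0.187).

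**Figure D5:**
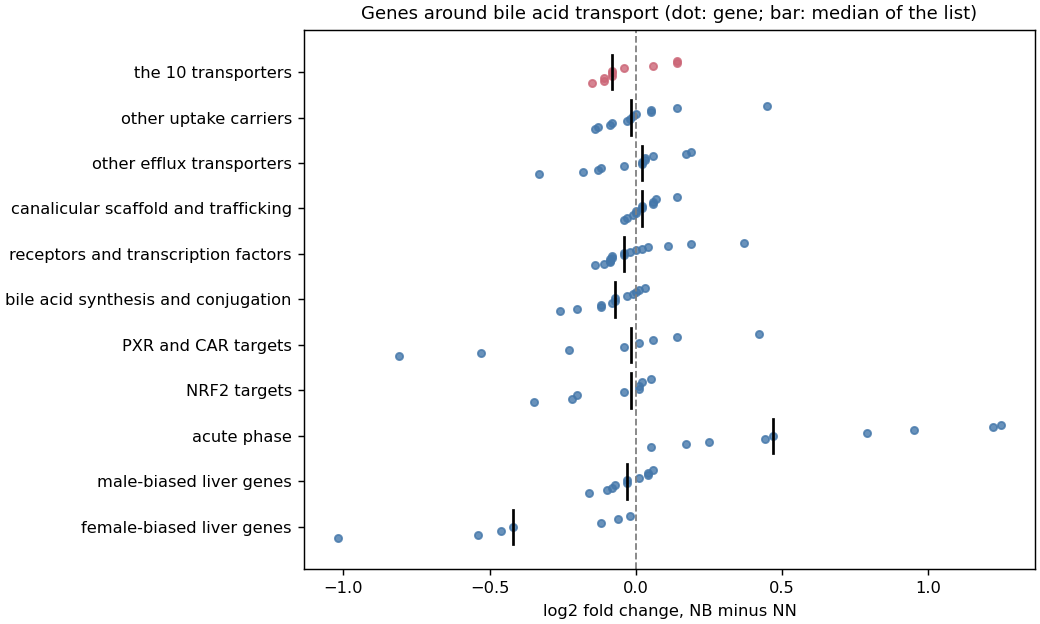
Log2 fold change (NB minus NN) of each measured gene of the 10 transporters and of 10 lists around bile acid transport, with a black bar at the median of each list. The transporters span −0.15 to 0.14, a narrower range than the acute phase (0.05 to 1.25) and female-biased genes (−1.02 to −0.02). The canalicular scaffold (−0.04 to 0.14) and male-biased genes (−0.16 to 0.06) span less than the transporters. No gene shown was called.

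Inflammation lowers hepatic bile acid uptake carriers, and Slco1a1 and Slco1a4 differ between the sexes, so lists for both are given beside the transporters. All 9 measured acute phase genes were positive, with a median of 0.465 and 0 called; the NN values of Lcn2 had a mean of −1.36 ± 0.493 and the NB values one of −0.58 ± 0.84 (SD, n = 4 each; limma adjusted p = 1). The interleukin-1 receptor antagonist gene Il1rn was at 0.47 (SE 0.229). Of 10 male-biased liver genes 4 were positive and 6 negative (median −0.0301, 0 called), with Cyp2d9 at −0.08 (SE 0.0874) and the elongase gene Elovl3 at −0.16 (SE 0.206). All 7 measured female-biased genes were negative, with a median of −0.42 and 0 called, and Cyp3a44 was at −0.42 (SE 0.15, unadjusted p = 0.0216, limma adjusted p = 1) and Cyp17a1 at −0.46 (SE 0.217). The part of these genes in the transporter values was not tested.

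Markers of other liver cells that express some of these transporters were likewise not called. Of 10 cholangiocyte markers 3 were positive and 7 negative (median −0.0248), and their summed signal, relative to the array percentile on the linear scale, ranged from 52.2 to 64.8 in NN and from 49.3 to 65 in NB. Among them the osteopontin gene Spp1 was at 0.47 (SE 0.218). For 8 Kupffer cell markers, 7 of them positive, it ranged from 33.8 to 43.9 in NN and from 35.7 to 49.3 in NB, with Clec4f at 0.18 (SE 0.0906) and Adgre1 at 0.22 (SE 0.113). The 7 markers of sinusoidal endothelium had a median of 0.00127, the 7 of stellate cells 0.0869 and the 7 of lymphocytes 0.042. Their genes of smallest p were Pecam1 at −0.11 (SE 0.104) and Stab2 at 0.09 (SE 0.102), Pdgfrb at 0.36 (SE 0.118, unadjusted p = 0.014, limma adjusted p = 1) and Lrat at 0.14 (SE 0.151), and Cd3e at 0.16 (SE 0.117) and Ptprc at 0.14 (SE 0.114). Hepatocyte markers were split evenly, 5 positive and 5 negative, with a median of −0.00936 and a summed signal of 1870 to 2100 in NN and 1860 to 2070 in NB; Cps1 was at −0.30 (SE 0.127) and Alb at 0.18 (SE 0.0926). All markers of these lists were well above background on all 8 arrays.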

How the data were processed

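The deposited scanner files give, per the file headers, intensity values from Agilent Feature Extraction 11.5.1.1 (9.1 in the submitters' processing notes), background-subtracted and spatially detrended within each array of a single slide. The authors' deposited value table holds linear intensity values, with a median of 84.2 in each column. Its further steps are not given in the sources used here. Outlier spots (248 to 621 per array) were set missing, spots of a probe averaged on the log2 scale, and the 75th percentile of each array subtracted. RefSeq accessions (GRCm38.p6 table, names, chromosomes and gene order only; file headers name mm9) gave symbols for 31064 of 60273 probes. Probes well above background on at least 4 arrays were kept, with the brightest per gene. Genotypes were compared with limma 3.58.1 (R 4.3.3; lmFit, eBayes, two-sided), adjusted over all features, at 0.05. The steps were checked on simulated data. Correlations used exact permutation over pairings.

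The members, lists and tests were chosen with earlier results of these data known. Named genes are all members, the 2 genes of smallest p in each list, and any called list gene; Slc51b, Nr1h4, Cyp7a1 and Gm30843 were named after their values were seen. Of the listed genes, Slco1c1, Abcb1b, Ugt1a1, Gsta1, Orm2, Cyp2b13, Cyp3a41a and Sult3a1 were not measured, and 1 gene is not reported here. Alternatives covered normexp (offset 50), scaling by quantiles, the median or another percentile, the authors' table, filters, probe summaries, variance model, array weights, slide position, each array left out, and an adjusted p of 0.1.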

Additional observations from a re-analysis of the deposited data

Results flagged for a closer look

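Arrays far from the rest were sought for 41 named genes and the second transporter probes, but not for Slc51b, Nr1h4, Cyp7a1 and Gm30843. Among 86 sets of 4 arrays of a genotype, 4 held an array far from the other 3, where chance gives about 5%, or 4.3 sets. NN 7 was low for the canalicular pump gene Abcc2, at 1.83 against 2.01 to 2.05 on the other NN arrays. It was also low for Slc51a, at −3.70 (others −3.61 to −3.59), and for the glutathione transferase gene Gstm3, at 4.44 (others 5.01 to 5.12). NB 3 was low for the urea cycle gene Cps1, at 5.54 (others 5.92 to 5.98). All are log2 signals relative to the array percentile.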

How the results depend on the processing

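The count of called transporters was 0 under all 22 alternatives, and that of called features 2 to 4. Of the fold changes, Abcb11 turned to −0.02 without NN 6 (−0.02 to 0.13 with 1 array left out), Slco1a4 to 0.01 with normexp, and Abcc4 to −0.12 with its other probe. Slco1a4 also turned, to 0.00325, without NN 4 (−0.11 to 0.00325 with 1 array left out). The other 7 transporters kept their sign under every alternative, but not their size: Slc10a1 ran from −0.22 to −0.06, Slco1b2 from −0.19 (without NN 6) to −0.01 (without NN 1), Slco2b1 from −0.17 (without NN 7) to −0.02 (without NN 1), Abcb4 from −0.17 (without NN 6) to −0.04 (without NN 1), Slco1a1 from −0.15 (without NN 7) to −0.04 (without NN 6), Abcc2 from −0.13 (without NN 7) to −0.05 (without NN 4, NB 2 or NB 3) and Abcc3 from 0.08 (without NN 4) to 0.22 (without NN 1). Abcc4 was 0.01 with the mean of its probes and 0.03 without NB 5. Slc51a and Cyp8b1 kept their sign too, between −0.40 and −0.17 and between −0.33 and −0.19. The 45 correlations gave 0 calls, but 2 with quantile normalization; with single arrays left out, which was chosen after seeing the data, 0 to 2. No paired analysis by sample number was possible because the sample numbers run through both genotypes and no number is shared. Position on the slide does match the arrays, 1 of each genotype to a column. The fit with the slide column as a block called 0 of the 10 transporters. For the brighter probes the unadjusted limma p was 0.0917 for Slc10a1 and 0.132 for Abcc4, both with an adjusted p of 1. Counting signs within columns was added after seeing the data. The number of arrays limits precision: the largest difference that the intervals allow ran from 1.2-fold for Slco1a4 to 1.38-fold for Abcc4.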
